A study of Mus musculus with 39 samples.

Results

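Bdnf, Homer1, Nptx2, Vgf, Inhba, Pcsk1, Rgs2, Ptgs2, Nr4a2 and Dusp6 are late effector genes of neuronal activity, and their nuclear RNA and open chromatin were followed in neocortical nuclei isolated by 2 techniques. They were chosen by symbol, and all 10 were among the 24421 genes of the deposited read tables. The nuclei carried sfGFP and came from male and female mice, 13 to 16 weeks old, that carried Arc-creERT2 (TG/WT) together with R26-CAG-Sun1-sfGFP-Myc, the latter as M/WT in some animals and as M/M in others. In these animals tamoxifen lets a Cre recombinase driven by the Arc promoter switch on a tagged nuclear membrane protein, so the label marks neurons that had used the Arc promoter around the injection. Tamoxifen was given 5 h before a social interaction test, and the cortex was taken on the third day, so both groups shared genotype, injection, test and delay. One group of nuclei was sorted by fluorescence (FANS, fluorescence-activated nuclei sorting), and the other was pulled down on beads (INTACT, in which an antibody binds the tag on the nuclear surface). Nuclear RNA from 10000 nuclei per library was sequenced from 3 biological sources, called batches here, with 4 FANS and 4 INTACT libraries in batch 1, 7 and 4 analyzed in batch 2, and 7 and 5 in batch 3. ATAC-seq, which cuts open chromatin with a transposase, was run on 50000 nuclei per library in 3 technical replicates of 1 biological source per technique. As the study's text has it, the RNA batches differed in biological source, so p-values within a batch measure the spread between these libraries, which may be technical. It describes RNA integrity as high in batch 1 and as lower, with some overlap, in the other batches, so RNA integrity and source cannot be told apart between batches.

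Neuronal activity is read out in waves of transcription. Immediate early genes, most of which encode transcription factors, come first, and late effector genes follow and encode proteins that act at the synapse, on the cell's signaling cascades or outside the cell. Calcium entry acts on the nucleus through kinases that phosphorylate CREB, the factor that binds the cyclic AMP response element (CRE), while FOS and JUN proteins bind the AP-1 site. BDNF, activin (the dimer of the subunit that Inhba encodes), neuronal pentraxin 2 and the VGF peptides are secreted, and PCSK1 is a convertase that cuts secreted precursors. HOMER1 is a postsynaptic scaffold, RGS2 shortens G protein signals, DUSP6 dephosphorylates ERK kinases, PTGS2 makes prostaglandin precursors and NR4A2 is a nuclear receptor that acts as a transcription factor.

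The upstream sequences of these genes are shown first, because the ATAC lists bear on them. RefSeq windows for GRCm38.p6, the assembly of mm10, were used for 8 of the 10 members, with 15 windows in all, and Nptx2 and Vgf were not among them. In the 250 bases before a start, on both strands, the full CRE (TGACGTCA) stood in 1.55% of all 32851 windows and in 1 of the 15 members' windows, that of Pcsk1. Its half-site (TGACG), which the full CRE contains on each strand, stood in 17.8% of all windows and in 5 of the 15. The AP-1 site (TGANTCA) stood in 6.75% of all windows and in 1 of the 15, before the start of Bdnf that lies 2332 bases downstream of the first. These 6 windows are printed from 5′ to 3′ on the strand of the gene, with half-sites and AP-1 sites in capitals.
Pcsk1, chr13:75089607-75089856, plus strand: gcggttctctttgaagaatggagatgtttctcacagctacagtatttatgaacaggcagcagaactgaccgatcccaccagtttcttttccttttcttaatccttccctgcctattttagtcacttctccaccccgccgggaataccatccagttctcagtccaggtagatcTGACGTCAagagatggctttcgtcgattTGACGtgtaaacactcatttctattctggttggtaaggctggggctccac
Homer1, chr13:93303507-93303756, plus strand: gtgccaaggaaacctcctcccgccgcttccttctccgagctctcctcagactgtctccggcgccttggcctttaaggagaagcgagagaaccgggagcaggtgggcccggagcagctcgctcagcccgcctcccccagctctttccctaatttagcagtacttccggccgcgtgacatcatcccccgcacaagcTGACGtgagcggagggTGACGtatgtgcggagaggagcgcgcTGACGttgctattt
Nr4a2, chr2:57124004-57124253, minus strand: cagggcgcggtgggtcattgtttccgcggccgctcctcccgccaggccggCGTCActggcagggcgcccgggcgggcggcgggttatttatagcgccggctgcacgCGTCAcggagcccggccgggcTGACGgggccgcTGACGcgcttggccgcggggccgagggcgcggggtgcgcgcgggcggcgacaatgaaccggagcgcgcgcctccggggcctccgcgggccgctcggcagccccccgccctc
Rgs2, chr1:144004150-144004399, minus strand: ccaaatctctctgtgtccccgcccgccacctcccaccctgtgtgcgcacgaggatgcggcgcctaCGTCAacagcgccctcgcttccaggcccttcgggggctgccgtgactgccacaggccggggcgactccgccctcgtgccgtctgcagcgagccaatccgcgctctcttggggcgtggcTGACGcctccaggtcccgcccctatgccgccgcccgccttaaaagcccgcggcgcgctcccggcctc
Bdnf, chr2:109692186-109692435, plus strand: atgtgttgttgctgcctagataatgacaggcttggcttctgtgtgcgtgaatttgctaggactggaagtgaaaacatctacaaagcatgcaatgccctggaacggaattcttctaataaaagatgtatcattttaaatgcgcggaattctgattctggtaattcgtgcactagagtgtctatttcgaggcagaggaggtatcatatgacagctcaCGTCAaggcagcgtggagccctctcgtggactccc
Bdnf, chr2:109676782-109677031, plus strand: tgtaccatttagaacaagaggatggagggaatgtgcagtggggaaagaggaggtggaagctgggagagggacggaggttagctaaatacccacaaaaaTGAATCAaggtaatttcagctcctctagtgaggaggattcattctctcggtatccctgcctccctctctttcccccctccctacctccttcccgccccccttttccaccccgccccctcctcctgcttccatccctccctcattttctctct
The full CRE of Pcsk1 began 78 bases before the start. Nr4a2 held 4 half-sites and Homer1 held 3, the nearest of them 14 bases before the start of Homer1. In the Bdnf window whose start lies 17736 bases downstream of the first, the half-site stood 35 bases before the start. A match is a description of the letters and says nothing of binding.

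Values for RNA are normalized read counts, in which the reads on each gene were divided by a size factor of the library, so levels compare between libraries of a batch. Reads on genes ranged from 4205665 to 11028711 per library. In batch 1 the FANS libraries held 4853224 to 6066759 reads on genes and the INTACT libraries 8621143 to 11028711. The counting assigned 79.4% to 81.8% of the FANS reads to no gene, against 71.3% to 72.7% of the INTACT reads. Whether introns were counted is not given in the sources used here, so such reads may lie within genes. In batch 2 these shares were 79.4% to 81.6% and 77.4% to 78.9%, also without overlap. In batch 3 these shares overlapped, at 80.0% to 85.1% and 81.9% to 83.0%. Arc, whose promoter drives the label, was 0.20 higher in INTACT on the log2 scale in batch 1 (adjusted p = 0.00329) and differed by -0.05 and -0.07 in batches 2 and 3 (adjusted p = 0.697 and 0.779, limma with Benjamini-Hochberg adjustment).

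The first question was whether the technique changed the level of these genes within a batch. In batch 1, 5 of the 10 were higher in INTACT nuclei (Nptx2, Vgf, Ptgs2, Dusp6 and Rgs2), by 1.30 to 1.53 fold, and Homer1 was lower. The test was limma on log2(normalized count + 1) over all genes, called at an adjusted p under 0.05, and it called 18.6% of the 15114 genes tested higher and 17.5% lower in that batch. The libraries of the techniques did not overlap for 5 members that lay higher in INTACT and 1 that lay lower, as for 17.1% and 16.5% of all genes. The members' median difference was 0.25 on the log2 scale, beside 0.01 over all genes. In batches 2 and 3 the members' medians were -0.05 and -0.18, and 1 member passed the test in each, where 1.14% and 1.7% of all genes did (0.309% and 0.519% in the direction of these members, lower in INTACT). Fewer nuclei of a type and less RNA per nucleus cannot be told apart in these bulk libraries.

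**Figure D1:**
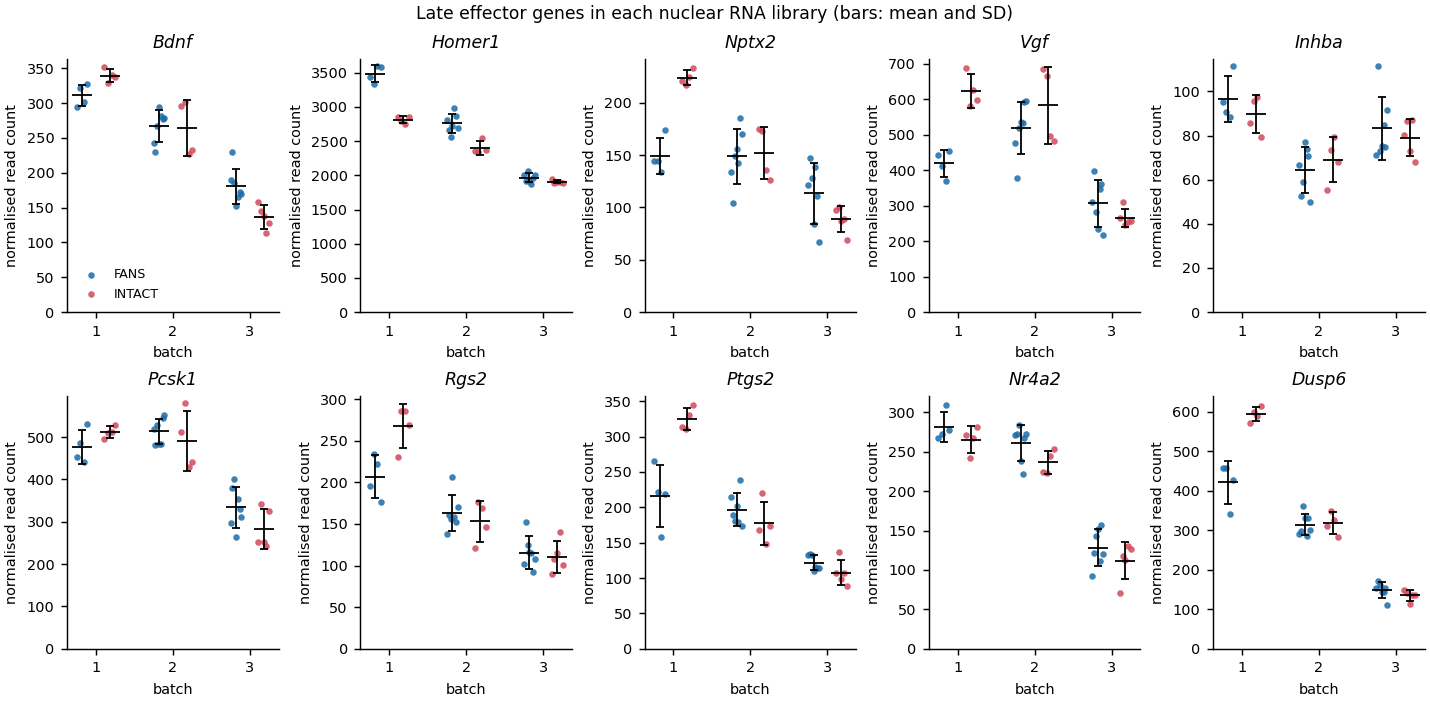
Normalized read counts (y axis, from 0) of the 10 genes in every nuclear RNA library by batch (x axis), FANS in blue and INTACT in red, with the mean and SD in black. In batch 1 the INTACT points of Nptx2, Vgf, Ptgs2 and Dusp6 lie above all FANS points and those of Homer1 below, whereas in batch 3 the groups overlap for every gene.

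Among the secreted factors, Nptx2 and Vgf moved with technique in batch 1. Nptx2, the pentraxin that gathers AMPA receptors at synapses, had normalized counts of 144, 145, 134 and 174 in the FANS libraries and of 221, 217, 224 and 233 in the INTACT libraries. All INTACT values lay above all FANS values. The difference was 0.59 ± 0.10 (SE) on the log2 scale, a fold of 1.5 (adjusted p = 2.54e-05). Vgf, the precursor of several neuropeptides, counted 442, 412, 369 and 455 in FANS and 689, 581, 626 and 598 in INTACT, again without overlap. Its difference was 0.57 ± 0.07 on the log2 scale (adjusted p = 8.10e-07). In batch 2 both genes overlapped between techniques. Nptx2 ran from 105 through a median of 149 to 186 in FANS and read 174, 173, 136 and 126 in INTACT, while Vgf ran from 379 through 534 to 594 and read 685, 664, 497 and 483. The differences were 0.04 ± 0.12 for Nptx2 and 0.16 ± 0.10 for Vgf on the log2 scale (adjusted p = 0.911 and 0.468). The INTACT libraries of batch 2 fell into a higher pair, replicates 1 and 2, and a lower pair for both genes. In batch 3 the differences were -0.32 ± 0.15 for Nptx2 and -0.18 ± 0.11 for Vgf (adjusted p = 0.341 and 0.508).

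In batch 3 the differences of all 10 members were below 0, with a median of -0.18 beside -0.0044 over all genes, and 1 passed the test. Inhba and Rgs2 came to 0.0089 and 0.0076 without FANS replicate 2, and Rgs2 to 0.011 without INTACT replicate 1. The member that passed was Bdnf, the growth factor that signals through TrkB. Its FANS libraries there ran from 152 through a median of 172 to 230, and its INTACT libraries read 159, 145, 138, 114 and 128. The groups overlapped by 1 INTACT library. The difference was -0.40 ± 0.10 on the log2 scale, a level 1.32-fold lower in INTACT (adjusted p = 0.0300). The call was lost with no filter on low values (limma adjusted p = 0.0557). Leaving out any one of FANS replicates 1, 2 and 3 or INTACT replicates 3, 4 and 5 ended the call, with adjusted p between 0.0645 and 0.116, over a range of 0.0104 to 0.116 for all libraries left out in turn. In batch 1 Bdnf counted 295, 321, 301 and 327 in FANS and 351, 328, 340 and 338 in INTACT. These groups did not overlap, yet the difference of 0.13 ± 0.07 did not pass the test (adjusted p = 0.176). In batch 2 it was -0.03 ± 0.09 (adjusted p = 0.923).

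Inhba, the activin subunit, had 55 to 147 reads per library. In batch 1 it counted 95.2, 90.7, 88.6 and 112 in FANS and 85.7, 95.6, 97.6 and 79.3 in INTACT, and the groups overlapped. Its differences were -0.11 ± 0.13, 0.10 ± 0.14 and -0.06 ± 0.12 on the log2 scale in batches 1, 2 and 3 (adjusted p = 0.555, 0.778 and 0.876). An annotated gene, B230303A05Rik, overlaps Inhba, as LOC105244150 overlaps Nr4a2 and Gm34921 overlaps Dusp6, and the counting setting for strand is not given in the sources used here, so reads of such pairs cannot be told apart. Pcsk1, the convertase, counted 453, 486, 440 and 530 in FANS and 496, 509, 511 and 529 in INTACT of batch 1. The INTACT values lay inside the FANS range, and the difference was 0.10 ± 0.07 (adjusted p = 0.243). In batches 2 and 3 it was -0.07 ± 0.07 and -0.24 ± 0.10 (adjusted p = 0.673 and 0.235).

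Homer1, the scaffold that ties metabotropic glutamate receptors to the postsynaptic density, was lower in INTACT nuclei in 2 batches. In batch 1 the FANS libraries counted 3432, 3333, 3596 and 3581 and the INTACT libraries 2855, 2790.2, 2757 and 2856. Every INTACT library lay below every FANS library. The difference was -0.31 ± 0.04 on the log2 scale, a level 1.24-fold lower (adjusted p = 2.50e-06). In batch 2 the FANS libraries ran from 2564 through a median of 2725 to 2978 and the INTACT libraries read 2352, 2334, 2543 and 2367. These did not overlap either, which held for 1.4% of the 14876 genes tested in this direction, and the difference was -0.20 ± 0.05, or 1.15-fold lower (adjusted p = 0.0443). This second call was lost without any one of FANS replicates 1, 6, 7 and 8 or INTACT replicates 1, 2 and 4, with adjusted p between 0.0623 and 0.146, over a range of 0.0243 to 0.146, and with no filter on low values (limma adjusted p = 0.0828). In batch 3 the libraries ran from 1868 through 1962 to 2066 in FANS and read 1946.5, 1889.9, 1908, 1898 and 1885 in INTACT, and the difference was -0.04 ± 0.05 (adjusted p = 0.739). The gene's counts sum the long scaffold forms and the short activity-induced form Homer1a, which lacks the coiled coil, and the forms were not separated.

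Dusp6, Ptgs2 and Rgs2 were also higher in INTACT in batch 1. Dusp6, the ERK phosphatase, counted 459, 457, 342 and 428 in FANS and 573, 600.4, 590 and 616 in INTACT. The groups did not overlap, and the difference was 0.50 ± 0.08 on the log2 scale, a fold of 1.42 (adjusted p = 1.17e-05). Ptgs2, the inducible cyclooxygenase, counted 265, 222, 158 and 219 in FANS and 313, 311, 331 and 345 in INTACT. FANS replicate 3 was low for both genes, and the INTACT libraries still lay above the other FANS libraries. The Ptgs2 difference was 0.61 ± 0.11, a fold of 1.53 (adjusted p = 6.74e-05). Rgs2, the G protein inhibitor, counted 196, 234, 222 and 176 in FANS and 230.1, 285, 286 and 269 in INTACT, so 1 INTACT library lay within the FANS range. Its difference was 0.37 ± 0.10, a fold of 1.30 (adjusted p = 0.00353). Of the 6 members called in batch 1, Nptx2 and Ptgs2 reached 1.5-fold, as did 7.97% of all genes tested.

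In batch 2 these 3 genes overlapped between techniques. Dusp6 ran from 285 through 302 to 361 in FANS and read 312, 349, 327 and 284 in INTACT, a difference of 0.02 ± 0.08 (adjusted p = 0.944). Ptgs2 ran from 173 through 188 to 238 and read 167, 219.9, 148 and 174, a difference of -0.16 ± 0.10 (adjusted p = 0.490). Rgs2 differed by -0.10 ± 0.11 (adjusted p = 0.712). In batch 3 the differences were -0.13 ± 0.10 for Dusp6, -0.19 ± 0.10 for Ptgs2 and -0.06 ± 0.12 for Rgs2 (adjusted p = 0.609, 0.454 and 0.878).

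Nr4a2, the nuclear receptor, had differences below 0 in each batch, and none passed the test. It counted 268, 272, 309 and 278 in FANS and 271, 242, 267 and 282 in INTACT of batch 1, a difference of -0.09 ± 0.08 (adjusted p = 0.426). In batches 2 and 3 it was -0.14 ± 0.08 and -0.20 ± 0.14 (adjusted p = 0.421 and 0.543). With batch as a term over all 31 libraries it was -0.15 ± 0.07 (adjusted p = 0.138).

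**Figure D2:**
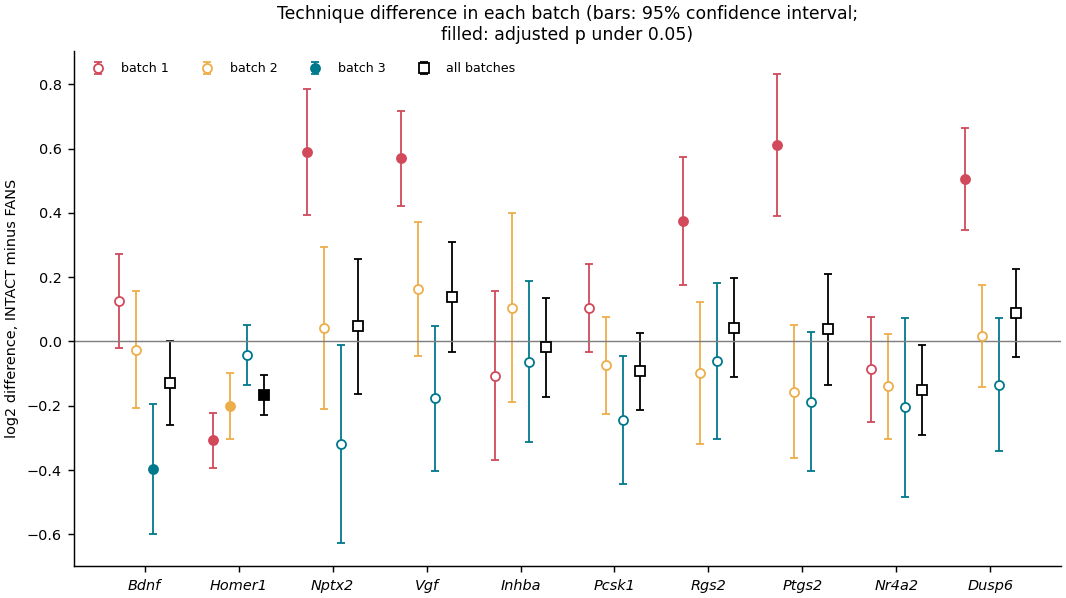
Log2 difference of INTACT minus FANS (y axis) for each gene (x axis) in batches 1, 2 and 3 and over all batches, with 95% confidence intervals from limma and filled symbols where the adjusted p was under 0.05. Filled symbols above 0 belong to batch 1 (Nptx2, Vgf, Rgs2, Ptgs2 and Dusp6), Homer1 is filled below 0 in batches 1 and 2 and over all batches, and Bdnf is filled below 0 in batch 3.

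Over all batches, with batch as a term, Homer1 was the member that passed the test, at -0.17 ± 0.03 on the log2 scale (adjusted p = 0.000127), where 7.45% of the 14332 genes tested were called lower and 8.66% higher. The next largest differences were -0.15 for Nr4a2, 0.14 for Vgf and -0.13 for Bdnf (adjusted p = 0.138, 0.276 and 0.171). The technique effects of some members differed between batches by the test of the difference itself, and those of Inhba, Pcsk1, Rgs2 and Nr4a2 passed it in no pair of batches. Batch 1 was also the batch described as high in RNA integrity. Between batches 1 and 2 the difference passed for Ptgs2, at 0.77 ± 0.17 (adjusted p = 0.00254), and for Dusp6, at 0.49 ± 0.14 (adjusted p = 0.0217), where 6.3% of all genes passed. Between batches 1 and 3 it passed for 6 members, where 23.3% of all genes did, and was widest for Nptx2 at 0.91 ± 0.21 (adjusted p = 0.00139), Ptgs2 at 0.80 ± 0.16 (adjusted p = 0.000283) and Vgf at 0.75 ± 0.17 (adjusted p = 0.00105). Dusp6, Bdnf and Homer1 differed by 0.64, 0.52 and -0.27 (adjusted p = 0.000366, 0.00366 and 0.00136). Between batches 2 and 3 limma called 0 members, as it did 0% of all genes tested, and the lowest adjusted p of a member was 0.194, for Bdnf. At an unadjusted p under 0.05 there were 3 members, Bdnf, Homer1 and Vgf, and 12.8% of all genes tested.

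The members called higher in batch 1 were also the shorter genes, which was noticed after their values were seen. Vgf spans 3057 bases on mm10 (chr5:137030295-137033351), Dusp6 4259 (chr10:99263231-99267489), Rgs2 4812 (chr1:143999338-144004149), Ptgs2 8204 (chr1:150100031-150108234) and Nptx2 11592 (chr5:144545887-144557478). The 5 others span 16778 bases or more. They are Nr4a2 (chr2:57107226-57124003), Inhba (chr13:16011851-16031609), Pcsk1 (chr13:75089857-75134861), Bdnf (chr2:109674700-109727043) and Homer1, the longest at 101373 bases (chr13:93303757-93405129). Over the genes tested in batch 1 that had a RefSeq span, the median log2 difference went from 0.20 in genes of up to 5 kb through 0.13 at 5 to 15 kb and -0.01 at 15 to 50 kb to -0.12 above 50 kb. Of these genes, 28.2% were called higher up to 5 kb, 26.9% at 5 to 15 kb, 15.9% at 15 to 50 kb and 9.70% above 50 kb, where 32.5% were called lower. In batch 2 the class medians lay between -0.03 and 0.04, and in batch 3 between -0.02 and 0.01.

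**Figure D3:**
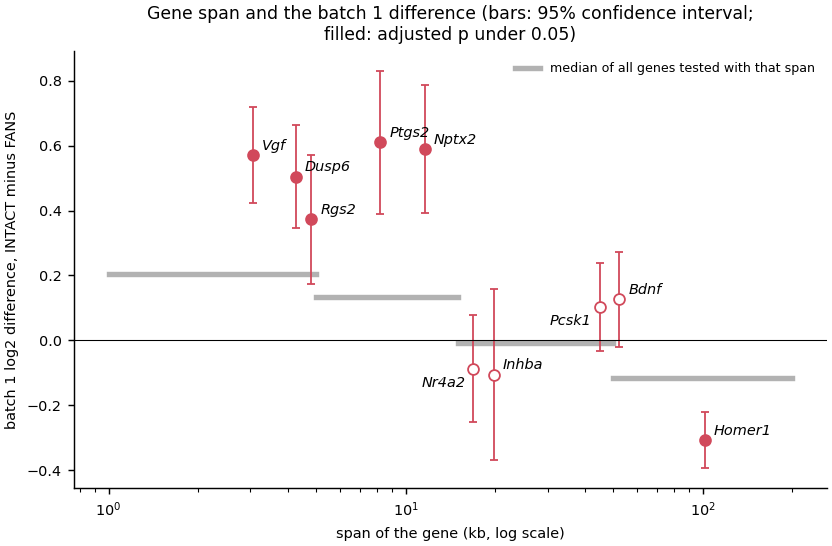
Batch 1 log2 difference of INTACT minus FANS (y axis) against the span of each gene in kb (x axis, log scale), with 95% confidence intervals, filled where the adjusted p was under 0.05, and gray bars for the median of the tested genes with a RefSeq span in each span class. The 5 members called higher are the 5 with the shortest spans, and Homer1, called lower, has the longest.

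Other genes of the pathway were read from lists of known members. Of 19 other late-response genes tested in batch 1, 7 were higher and 0 lower in INTACT (18.6% and 17.5% of all genes), with a list median of 0.20 beside 0.01 over all genes. The largest differences belonged to Adcyap1, the PACAP neuropeptide precursor, at 0.73 (adjusted p = 3.05e-05), Scg2, a granin of dense-core vesicles, at 0.69 (adjusted p = 4.11e-07), Nptx1, the pentraxin related to Nptx2, at 0.57 (adjusted p = 4.52e-09) and Rgs4, a relative of Rgs2, at 0.52 (adjusted p = 1.29e-06). Of 15 immediate early genes, 6 were higher and 1, Nr4a3, was lower (again beside 18.6% and 17.5% of all genes), with a median of 0.17. Ier2 stood at 0.93 (adjusted p = 0.000746), Jun at 0.50 (adjusted p = 0.000597), Junb at 0.36 (adjusted p = 0.0225) and Btg2 at 0.34 (adjusted p = 0.0187).

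Upstream regulators, the kinases and factors that carry the activity signal to the nucleus, went in both directions in batch 1. Of 16 tested, 3 were higher, a share near the 18.6% of all genes, and 5 lower, beside 17.5% of all genes, with a median of -0.01. Crtc1, a coactivator of CREB, stood at -0.47 (adjusted p = 8.74e-06), Mef2d, a calcium-responsive transcription factor, at -0.39 (adjusted p = 0.000965), Camk2a, a calcium-dependent kinase, at -0.37 (adjusted p = 1.90e-07) and Mapk3, the kinase ERK1 that DUSP6 acts on, at 0.34 (adjusted p = 0.0255). Of 34 receptors and partners of the members' proteins, 10 were higher and 7 lower (18.6% and 17.5% of all genes), with a median of 0.06. Pcsk1n, which encodes an inhibitor of PCSK1, stood at 0.88 (adjusted p = 3.96e-07), and Nptxr, the pentraxin receptor, at 0.77 (adjusted p = 0.000645). Cpe, the carboxypeptidase that trims peptides after PCSK1 has cut, stood at 0.76 (adjusted p = 1.03e-07), and Fst, the activin-binding follistatin, at 0.71 (adjusted p = 0.0141). In batch 2 the listed gene that passed was Nr4a3, a relative of Nr4a2, at -0.38 (adjusted p = 0.00996). In batch 3 Jun passed at -0.64 (adjusted p = 0.0126) and Shank1, a postsynaptic scaffold that binds HOMER1, at 0.37 (adjusted p = 0.0122), after -0.53 in batch 1 (adjusted p = 3.41e-07).

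Markers of astrocytes and oligodendrocytes moved with technique in the batch where most members did. In batch 1, 18.6% of all genes were called higher and 17.5% lower. Of 10 astrocyte markers 7 were higher and 0 lower, with a summed normalized count of 6286 to 7003 in FANS and 7756 to 7969 in INTACT. Of 10 oligodendrocyte markers 8 were higher and 0 lower, with sums of 6648 to 8303 and 10652 to 11288. Slc1a3, a glutamate transporter of astrocytes, was at 47.2 ± 10.1 (SD) in FANS and 135 ± 13.3 in INTACT (n = 4 each; limma adjusted p = 2.32e-08), and Slc17a7, the vesicular glutamate transporter of excitatory neurons, at 1746 ± 111 and 2462 ± 84.8 (limma adjusted p = 1.92e-08). The pan-neuronal markers summed to 21132 to 22301 in FANS and 22105 to 23176 in INTACT, with 3 of 8 higher and 3 lower (median -0.10). Of 9 inhibitory neuron markers tested, 4 were higher and 2 lower, with sums of 409 to 517 and 461 to 531. Of 10 excitatory neuron markers 2 were higher and 2 lower, shares near those of all genes. The excitatory markers' median was -0.11, with 3 of 10 above 0, and their sums were 8044 to 8574 and 8465 to 9019. Of 5 microglia markers tested 0 were higher and 1 lower, of 4 vascular markers 2 and 1. Of 7 oligodendrocyte precursor markers tested 2 were higher and 1 lower. In batch 2, 1.14% of all genes were called in either direction. There 5 of 10 oligodendrocyte markers were higher, with sums of 7331 to 14210 and 14084 to 16998, and 1 of 10 astrocyte markers, Slc1a3. In batch 3 the sums were 1829 to 2477 and 2255 to 2827 for oligodendrocytes and 5553 to 7253 and 5992 to 6609 for astrocytes. No listed marker was at 0 in every library. The markers' part in the members' differences was not tested, nor was that of the depth and of the share of reads assigned to no gene.

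The levels of the members per length kept much of their order in all 6 groups. On the scale of reads on the gene divided by its exon length and by the reads on all genes (RPKM), Homer1 came first in each group, from 47.8 ± 0.88 (SD, n = 5) in INTACT of batch 3 to 60.0 ± 1.91 (n = 4) in FANS of batch 1, and did not overlap the next gene. Vgf came second in each group, from 20.3 ± 2.11 (n = 5) in INTACT of batch 3 to 36.6 ± 6.71 (n = 4) in INTACT of batch 2. In FANS of batch 1 alone it overlapped the third gene, Dusp6. Dusp6 and Pcsk1 came next in each group, and Dusp6 and Pcsk1 overlapped in the 4 groups of batches 2 and 3. Nr4a2, Rgs2, Nptx2 and Ptgs2 followed with neighbors that mostly overlapped. Bdnf and Inhba were the lowest in each group, Inhba at 1.63 ± 0.28 (n = 7) to 2.56 ± 0.47 (n = 7), and these 2 did not overlap.

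The level of Dusp6 per length (RPKM) was lower in batch 3 than in batch 1. In FANS it was 20.1 ± 2.88 (n = 4), 18.2 ± 1.81 (n = 7) and 10.4 ± 1.46 (n = 7) in batches 1, 2 and 3, and in INTACT it was 29.0 ± 1.16 (n = 4), 18.2 ± 1.62 (n = 4) and 9.37 ± 0.98 (n = 5). Homer1 was at 60.0, 57.5 and 49.8 in FANS. RPKM is scaled to each library's own reads on genes. No test of these levels was run between batches, where source and RNA integrity cannot be told apart.

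Within groups, the deviations of single libraries from their group mean on the log2 scale showed which genes went up and down together. Over the 31 libraries, Pearson's r was 0.86 between Nptx2 and Vgf, 0.68 between Bdnf and Vgf and 0.66 between Bdnf and Nptx2. Nptx2 and Dusp6 followed at 0.60, and Inhba had 0.22, 0.20 and 0.18 with Bdnf, Nptx2 and Vgf. Homer1 had r between -0.26 and 0.23 with the 9 others, and the lowest value was -0.50, between Bdnf and Nr4a2. The genes most like the members' mean deviation were March6, Slc39a10, Nceh1, Atp1b1 and Acsl4, with r from 0.91 to 0.92. Of the 9601 genes compared, 5% had an r above 0.70. These are descriptions, since the libraries of a group share a source, and depth and RNA quality differ among them.

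The second question was whether open chromatin near these genes differed between techniques. Each ATAC library had a peak within 1.5 kb of a start of all 10 genes, and 58.2% of all 23165 genes had one in all 6 lists. Peak height is the fold enrichment that the peak caller listed. By the highest such peak, Rgs2 stood at 13.9, 15.3 and 15.2 in the FANS lists and 12.6, 11.4 and 13.1 in the INTACT lists, and Homer1 at 13.4, 14.3 and 13.4 against 11.5, 12.2 and 14.5. Rgs2 did not overlap between techniques, and Homer1 did. The lowest promoter peaks belonged to Nptx2, at 6.38, 5.48 and 5.93 against 4.23, 5.35 and 4.19, and Vgf, at 5.72, 6.39 and 5.83 against 5.38, 4.96 and 6.99. Vgf, second in RNA per length, was thus among the lowest in promoter height, at the 5.48 percentile of 13476 genes with a promoter peak in all 6 lists, by its FANS mean.

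Heights were lower in INTACT without overlap for 5 members (Bdnf, Nptx2, Inhba, Pcsk1 and Rgs2) and higher for 0, while over all 13476 genes 54.8% were lower and 1.46% higher. The members' share was thus near that of all genes. The largest log2 differences were -0.38 for Nptx2 and -0.35 for Pcsk1, each with an exact 2-sided permutation p of 0.1, which is the smallest that 3 lists against 3 can give. The median promoter height of a list was 13.7 to 13.8 in FANS and 10.7 to 12.7 in INTACT. Divided by that median, 0 members were lower and 3 were higher in INTACT without overlap (Bdnf, Nr4a2 and Dusp6), beside 16.8% and 21.9% of all genes. Division by the median moves all genes of a list alike. After it, Nptx2, Pcsk1 and Rgs2 stayed below 0, at -0.13, -0.10 and -0.01 on the log2 scale, and the other 7 members lay above 0, up to 0.25 for Dusp6.

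Bdnf has 9 annotated starts over 48221 bases, and the height differed along them. Its highest peak lay in a merged region over the start 2332 bases downstream of the first, whose AP-1 window is printed above. The summit stood 1233 bases past that start, outside the printed window. The heights were 10.8, 11.0 and 11.2 in FANS and 10.4, 9.88 and 10.5 in INTACT. The start 17736 bases downstream, with the half-site, had a peak of 7.76, 6.95 and 6.45 against 6.87, 5.89 and 6.62. The first start had 2.58, 2.13 and 2.1 against 2.42, 2.38 and 2.1, and at the last start 1 of the 6 lists had a peak.

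**Figure D4:**
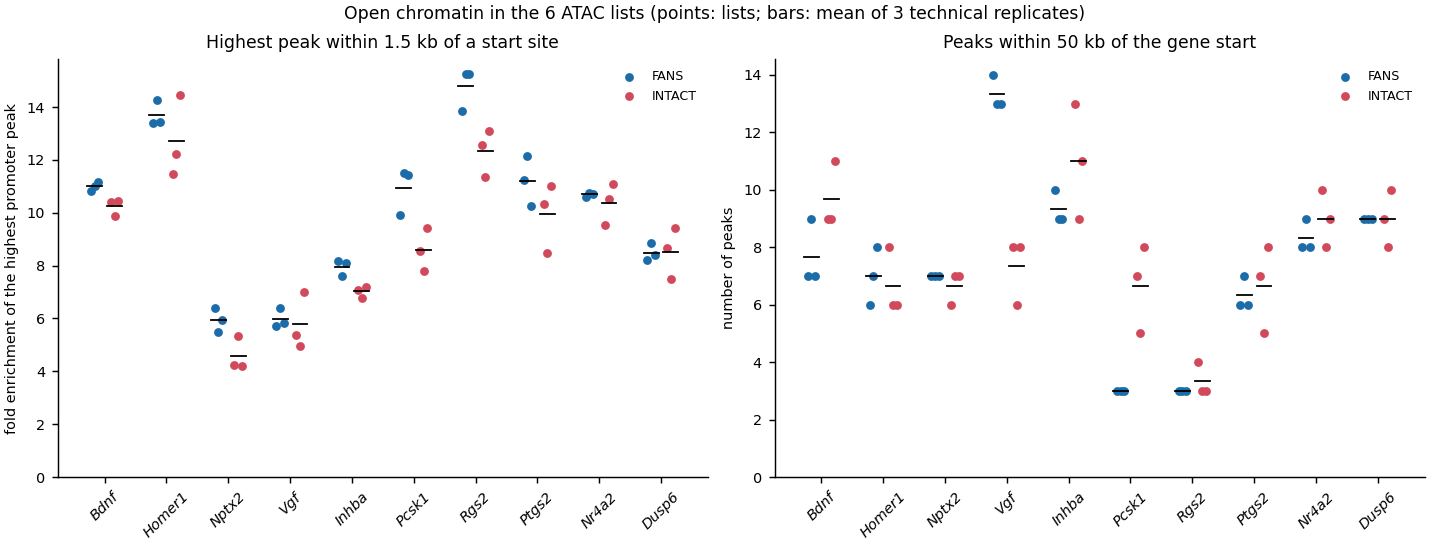
Left, fold enrichment of the highest peak within 1.5 kb of a start (y axis), and right, number of peaks within 50 kb of the gene start (y axis), for the 10 genes (x axis) in the 3 FANS (blue) and 3 INTACT (red) lists, with the mean as a bar. Nptx2 and Vgf have the lowest promoter peaks, and the peak counts part without overlap for Vgf and Pcsk1 alone among the 10.

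Within 50 kb of the gene start, 2 genes parted in the number of peaks. Vgf had 14, 13 and 13 peaks in the FANS lists and 8, 6 and 8 in the INTACT lists. Pcsk1 had 3, 3 and 3 in FANS and 7, 5 and 8 in INTACT. The exact permutation p was 0.1 for each, the smallest possible, and over all 23165 genes 35.2% had fewer peaks in INTACT without overlap and 3.75% had more. The 8 other genes overlapped. Over the 10 genes the lists held 73, 76 and 73 peaks in FANS and 81, 66 and 81 in INTACT (exact permutation p = 0.8), while the whole lists held 123596 to 130088 and 99514 to 123895 peaks. Per 100000 peaks of the list, the members' count was 59.1, 59.0 and 56.1 in FANS and 71.5, 66.3 and 65.4 in INTACT (exact permutation p = 0.1, the smallest possible).

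Overlapping peaks of the 6 lists formed 103 regions around the 10 genes, of which 34 were intergenic, 39 intronic and 30 touched an annotated exon. All 6 lists held 55 of them (53.4%, beside 44.99% of the 170178 regions of the genome). FANS lists alone held 10 (9.71%, beside 18.8%), and INTACT lists alone held 24 (23.3%, beside 12.3%). The rule that a peak is called or not says nothing of the signal under the caller's threshold, and the depth of these libraries is unknown here. Regions in 3 lists of 1 technique and in no list of the other numbered 4 for FANS, all near Vgf, and 4 for INTACT, of which 3 lay near Pcsk1 and 1 near Inhba. Such regions were 5.01% and 1.40% of all regions of the genome.

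The 3 INTACT regions of Pcsk1 lay upstream of the gene, with no annotated gene over them, at 27455, 21799 and 13821 bases before its start. Their heights were 3.56, 4.30 and 3.38, then 6.62, 6.72 and 5.70, then 6.11, 5.64 and 6.55 in the 3 INTACT lists. The 2 Pcsk1 regions that all lists shared were the promoter and a region 24305 bases downstream, the second at 12.0, 12.0 and 12.8 in FANS and 12.5, 12.2 and 12.5 in INTACT. Near Vgf, 1 of the 4 FANS regions lay 17612 bases upstream, outside annotated genes, with heights of 3.39, 3.37 and 3.80 in the 3 FANS lists. Other genes start within 50 kb of Vgf, among them Ap1s1 and Znhit1. A region 22043 bases downstream of the Vgf start was intergenic and lay nearer the start of Ap1s1, at 6230 bases. It stood at 19.3, 16.7 and 17.1 in FANS and 8.91, 5.64 and 10.4 in INTACT. The Inhba region lay 6104 bases before the start used here, at 4.15, 3.65 and 3.89, and touched an exon of an Inhba model that begins further upstream.

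The 151 bases around the highest summit of the 3 Pcsk1 regions and of the Vgf region 17612 bases upstream are printed, because they are among the places where the lists of the 2 techniques parted at these genes. They are from GRCm38.p6 on the plus strand, with half-sites of the CRE and AP-1 sites in capitals.
Pcsk1 upstream 27455, chr13:75062327-75062477: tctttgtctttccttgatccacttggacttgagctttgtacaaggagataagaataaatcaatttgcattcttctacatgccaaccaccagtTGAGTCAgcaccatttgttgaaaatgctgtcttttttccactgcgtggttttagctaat
Pcsk1 upstream 21799, chr13:75067983-75068133: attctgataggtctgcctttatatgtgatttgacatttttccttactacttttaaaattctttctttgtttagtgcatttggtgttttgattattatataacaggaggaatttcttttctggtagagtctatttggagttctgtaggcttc
Pcsk1 upstream 13821, chr13:75075961-75076111: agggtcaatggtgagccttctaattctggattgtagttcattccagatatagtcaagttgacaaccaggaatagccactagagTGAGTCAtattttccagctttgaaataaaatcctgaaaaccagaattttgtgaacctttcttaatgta
Vgf upstream 17612, chr5:137012608-137012758: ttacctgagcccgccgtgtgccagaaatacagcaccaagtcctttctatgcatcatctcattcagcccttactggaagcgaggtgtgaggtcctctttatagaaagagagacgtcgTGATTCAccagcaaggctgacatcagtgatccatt
These are 4 of the 8 regions that all 3 lists of 1 technique held and none of the other's did, so no count of sites is drawn from them. In 151-base windows at the summits of all regions of the genome 12.9% held an AP-1 site, with 11.7% of the regions in 3 INTACT lists alone and 12.3% of those in 3 FANS lists alone. Of the 103 member regions 16 (15.5%) held an AP-1 site. A half-site of the CRE stood in 16 (15.5%), beside 8.03% of all regions and 9.86% of the regions in all 6 lists. Those with a half-site include promoters whose half-sites are printed above, such as that of Pcsk1, so the 2 counts are not separate. The bases under the Pcsk1 regions were 38.4%, 31.1% and 36.4% G and C, and those under the Vgf region 49.0%.

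**Figure D5:**
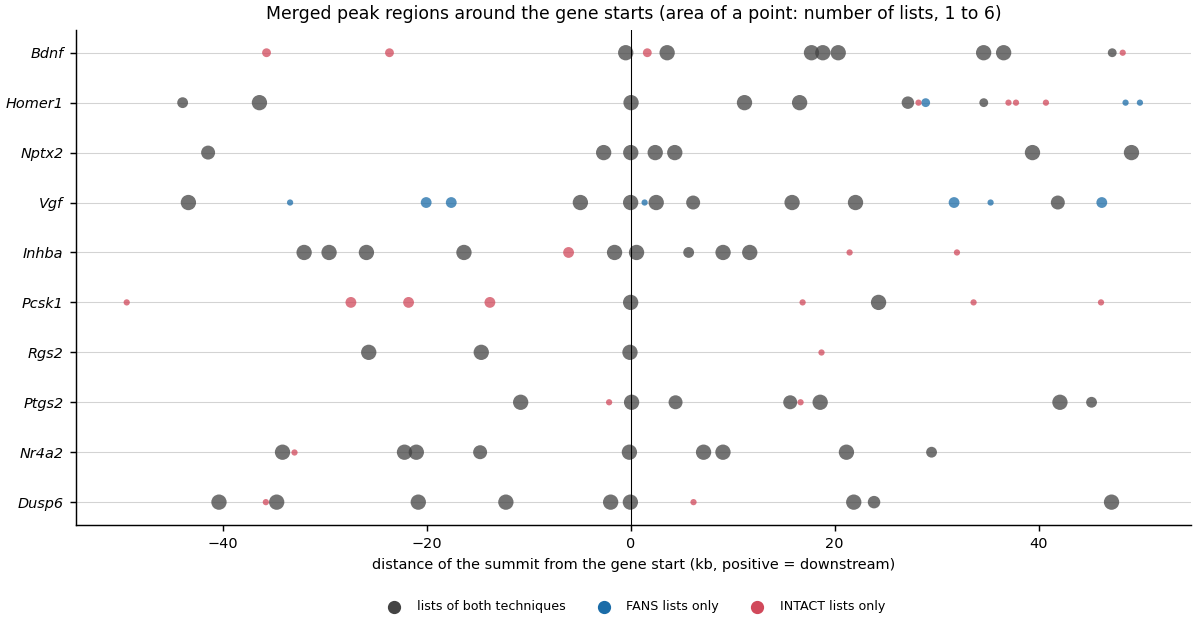
Merged peak regions of the 6 ATAC lists by distance of the summit from the gene start in kb (x axis, positive downstream) for each gene (y axis), with the area of a point for the number of lists and colors for regions in lists of both techniques (gray), FANS alone (blue) or INTACT alone (red). Vgf carries 7 blue and 0 red points, and Pcsk1 carries 7 red and 0 blue.

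Other distal regions were shared by all 6 lists and were chosen for description after their heights were seen. A region 36428 bases upstream of Homer1 stood at 14.6, 17.8 and 19.3 in FANS and 15.9, 13.2 and 18.4 in INTACT, and a region 16365 bases upstream of Inhba at 21.1, 18.7 and 20.4 against 17.9, 14.7 and 20.2. Both were higher than the promoter peak of their gene in all 6 lists. Within the body of Homer1, a region 11154 bases downstream of the start stood at 6.58, 6.31 and 5.82 in FANS and 3.24, 4.83 and 4.79 in INTACT, without overlap. Near Nptx2, the regions 39403 and 49114 bases downstream stood at 18.4, 17.7 and 18.6, then 17.2, 16.1 and 13.8 in FANS, against 11.5, 8.86 and 10.1, then 6.11, 5.104 and 7.18 in INTACT. A region 25706 bases upstream of Rgs2 went the other way, at 5.64, 6.18 and 6.01 in FANS and 9.42, 9.40 and 9.72 in INTACT.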

How the data were processed

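Nuclear RNA was measured in 31 libraries and open chromatin in 6. Per the paper's methods, the authors mapped RNA reads to mm10 with STAR and removed duplicates by molecular identifiers. Reads per gene were then counted with HTSeq and normalized with DESeq. The deposited signal values are normalized counts, given for each batch on its own. Whole reads were recovered for 100% of the low values compared (tolerance 0.1 reads). The 5 summary entries that name no gene were left out, and the entry for reads assigned to no gene alone held 71.3% to 85.1% of the reads. Of the RNA samples, FANS replicate 3 and INTACT replicate 5 of batch 2 were not analysed here. The ATAC peaks were called in each library by the authors with MACS2, and the deposited lists give a score, a fold enrichment (ratio), and −log10 p- and q-values of each summit. No reads per peak are given, so the depth of the ATAC libraries is unknown.

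Techniques were compared within a batch with limma 3.58.1 (R 4.3.3, trend, 2-sided) on the log2 of the normalized count plus 1, with Benjamini-Hochberg adjustment, for genes whose mean count reached 5. Fold changes are on that scale, which understates changes of low genes. All batches were fitted with batch as a term, and differences between batches by interaction. ATAC heights and peak numbers were compared by exact permutation. The RNA comparison within a batch and the rule for overlap of promoter heights were tested on simulated data. Alternatives included edgeR 4.0.16 and DESeq2 1.42.0 on the recovered reads, other filters and pseudocounts, the replicate block and leaving out each library. From each gene list the 4 genes with the largest change among those that passed the test are named per batch. Members and lists were chosen with earlier results of these data known. Gene models, spans and sequences are RefSeq GRCm38.p6. Some results near Vgf are not reported here.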

Additional observations from a re-analysis of the deposited data

Results flagged for a closer look

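In 60 groups of libraries, single values stood far from the others in 2, where chance gives about 1 in 20. The Homer1 normalized count of INTACT replicate 3 in batch 2 was 2543, while the others lay between 2334 and 2367. The Vgf normalized count of INTACT replicate 2 in batch 3 was 311, while the others lay between 246.7 and 264.6.

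The technique effect (INTACT minus FANS, log2 scale) differed between batches by the limma interaction test for these members. Between batches 1 and 2 it differed by 0.77 for Ptgs2 (0.61 and -0.16, adjusted p = 0.00254) and by 0.49 for Dusp6 (0.50 and 0.02, adjusted p = 0.0217). Between batches 1 and 3 it differed by 0.91 for Nptx2 (0.59 and -0.32, adjusted p = 0.00139), by 0.80 for Ptgs2 (0.61 and -0.19, adjusted p = 0.000283) and by 0.75 for Vgf (0.57 and -0.18, adjusted p = 0.00105). It differed by 0.64 for Dusp6 (0.50 and -0.13, adjusted p = 0.000366), by 0.52 for Bdnf (0.13 and -0.40, adjusted p = 0.00366) and by -0.27 for Homer1 (-0.31 and -0.04, adjusted p = 0.00136).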

How the results depend on the processing

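The 6 member calls of batch 1 held under each alternative run. In batch 2 the Homer1 call was lost with no filter on low values (limma adjusted p = 0.0828) and with the replicate block (adjusted p = 0.367), leaving 0 members called, and leaving out single libraries gave 0 to 1. Genes called numbered 170, against 85 with no filter, 3 with the replicate block, 351 with DESeq2 and 21 to 333 without single libraries. In batch 3 the Bdnf call was lost with no filter (adjusted p = 0.0557), leaving 0 members, while the replicate block called 3, adding Nptx2 at -0.46 and Pcsk1 at -0.26 (adjusted p = 0.0103 and 0.0219), and single libraries left out gave 0 to 1. Genes called there numbered 246, against 541 with array weights, 1102 with the replicate block and 101 to 484 without single libraries. Same-numbered samples had correlations of -0.21 to 0.28 and shared only a number.

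Over all batches 4 members were called without batch 3 (Homer1 with Nptx2, Vgf and Dusp6 at 0.28, 0.34 and 0.23), and genes called numbered 2309, against 631 without batch 1, 1353 without batch 2, 4127 without batch 3 and 708 with the replicate block. Uncalled values changed sign without batch 1 for Nptx2 (-0.151), Vgf (-0.0188), Inhba (0.0149), Rgs2 (-0.0786), Ptgs2 (-0.172) and Dusp6 (-0.0635), and without batch 3 for Bdnf (0.0413), Inhba (0.0121) and Pcsk1 (0.00345). In batch 2 the replicate block gave 0.159 for Bdnf and -0.00794 for Dusp6. Leaving out single libraries moved batch 2 values of Bdnf from -0.0922 to 0.0445, Dusp6 from -0.0289 to 0.0707, Nptx2 from -0.0387 to 0.126 and Rgs2 from -0.171 to 0.00959, and batch 3 values of Inhba from -0.101 to 0.00895 and Rgs2 from -0.151 to 0.0106. Promoter heights lower in INTACT without overlap fell from 5 members to 0 after division by the library median, and were 5 to 8 without single lists, 8 of them without INTACT list 3. Peaks within 50 kb had an INTACT to FANS ratio of 1.03, and 1.17 per 100000 peaks (exact permutation p = 0.1). The cause was not tested for any of these.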
